A study of Mus musculus with 2 samples.

Results

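The genes described here carry the handling of calcium, magnesium and vitamin D in the kidney. They are 10 listed genes, Calb1, Casr, Trpv5, Trpv6, Trpm6, Trpm7, Cyp27b1, Cyp24a1, Pth1r and Cnnm2, out of 43346 mouse genes in the deposited gene tables. Each symbol was matched to 1 Ensembl gene, and all 10 were found. Total RNA longer than 200 nt was measured in healthy kidneys of B6NCrl mouse embryos of day 15.5, when nephrons are still being added. The only group, embryonic kidney, held 2 biological replicate libraries made from 10 ng of RNA each, from pools that mixed male and female embryos. Replicate 2 pooled 62 embryos and had a total expected count of 39415002, and replicate 1 pooled 78 embryos and had 36244861. No mutation or treatment is named and no other age or tissue was analysed here, so the data allow levels within the tissue and differences between the pools to be compared, with no test between conditions.

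The kidney takes back filtered calcium and magnesium, mostly between cells along the proximal tubule and the thick ascending limb, and under hormonal control through the cells of the distal tubule. There, calcium enters through the channels Trpv5 and Trpv6, is carried by calbindins such as Calb1 and leaves through pumps and exchangers, while magnesium enters through channels built from Trpm6 and Trpm7. Parathyroid hormone, acting on Pth1r, and extracellular calcium, sensed by Casr, set this transport, and the kidney also makes active vitamin D with Cyp27b1 and breaks it down with Cyp24a1.

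The start regions of the 4 channel genes are shown first, because they differ widely in CpG content, a feature of broadly used promoters. Each window runs from 250 bases before a RefSeq start to 50 bases after it on GRCm38.p6, is read along the strand of the gene, and has its CG pairs in capitals. The windows lie at chr2:126876212-126876511 on the minus strand for Trpm7, chr19:18749480-18749779 on the plus strand for Trpm6, chr6:41636356-41636655 on the minus strand for Trpv6 and chr6:41680674-41680973 on the minus strand for Trpv5.
Trpm7: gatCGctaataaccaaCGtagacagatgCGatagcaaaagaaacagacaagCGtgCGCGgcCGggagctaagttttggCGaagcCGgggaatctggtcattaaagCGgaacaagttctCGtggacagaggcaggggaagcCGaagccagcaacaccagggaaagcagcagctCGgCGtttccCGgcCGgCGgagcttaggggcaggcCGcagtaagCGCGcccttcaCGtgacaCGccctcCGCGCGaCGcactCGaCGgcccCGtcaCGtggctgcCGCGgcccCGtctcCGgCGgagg
Trpm6: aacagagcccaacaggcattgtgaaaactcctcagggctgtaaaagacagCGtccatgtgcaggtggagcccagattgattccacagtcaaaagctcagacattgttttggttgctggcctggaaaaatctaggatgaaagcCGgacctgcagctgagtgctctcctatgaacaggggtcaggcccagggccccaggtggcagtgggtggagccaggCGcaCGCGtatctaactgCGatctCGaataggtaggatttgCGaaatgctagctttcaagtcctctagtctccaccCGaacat
Trpv6: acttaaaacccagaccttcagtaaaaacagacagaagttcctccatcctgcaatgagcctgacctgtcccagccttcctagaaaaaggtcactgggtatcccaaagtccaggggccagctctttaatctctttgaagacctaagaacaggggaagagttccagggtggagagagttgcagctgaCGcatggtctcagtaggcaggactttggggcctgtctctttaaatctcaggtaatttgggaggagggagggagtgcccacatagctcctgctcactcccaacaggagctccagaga
Trpv5: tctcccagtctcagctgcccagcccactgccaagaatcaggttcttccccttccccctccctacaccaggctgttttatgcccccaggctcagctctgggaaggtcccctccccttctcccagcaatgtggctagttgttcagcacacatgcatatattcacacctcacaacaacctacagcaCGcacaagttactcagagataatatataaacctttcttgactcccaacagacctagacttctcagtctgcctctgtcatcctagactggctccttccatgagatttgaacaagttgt
The Trpm7 window held 35 CG pairs and the Trpm6 window 9, whereas the Trpv6 and Trpv5 windows held 1 each. The GENCODE start of Trpm6 lies 253 bases downstream of the RefSeq start used here.

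Pth1r has 3 RefSeq starts, and the windows of the second and the third are shown because the deposited transcripts of the gene begin at or near them. They lie on the minus strand at chr9:110743637-110743936 and chr9:110742561-110742860, with CG pairs in capitals.
Pth1r start 2: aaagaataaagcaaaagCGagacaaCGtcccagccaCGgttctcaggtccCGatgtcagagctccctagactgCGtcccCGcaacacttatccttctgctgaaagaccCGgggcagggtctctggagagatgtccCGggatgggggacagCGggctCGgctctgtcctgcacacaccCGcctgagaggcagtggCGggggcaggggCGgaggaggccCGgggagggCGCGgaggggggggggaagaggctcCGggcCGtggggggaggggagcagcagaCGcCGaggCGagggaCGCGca
Pth1r start 3: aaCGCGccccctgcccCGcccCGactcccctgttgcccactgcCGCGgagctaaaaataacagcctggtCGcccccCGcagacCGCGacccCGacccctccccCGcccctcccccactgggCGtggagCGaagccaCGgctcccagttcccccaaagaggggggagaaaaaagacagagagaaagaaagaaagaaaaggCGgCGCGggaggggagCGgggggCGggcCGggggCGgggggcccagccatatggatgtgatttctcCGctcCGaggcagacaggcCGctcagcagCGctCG
The second window held 23 CG pairs and the third 27, while the first, whose start lies 3459 bases upstream of the second, held 5.

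The 10 genes spanned a wide range of levels, with Calb1, a cytosolic calcium buffer, at the top. Trpm6, a magnesium channel of the distal tubule, and Casr stood at the bottom. Levels are TPM, a relative abundance adjusted for transcript length and scaled to a fixed sum in each library. A gene counted as detected where both libraries had at least 1 TPM. By that rule 8 of the 10 genes were detected, all except Casr and Trpm6, against 62.3% of the 21474 protein-coding genes. The median level of the 10 genes was 3.97 TPM, against 5.25 TPM over all protein-coding genes and 19.5 TPM over the detected ones. In bulk tissue, fewer cells of a type and less RNA per cell cannot be told apart, so a low level does not say which cells make the RNA.

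**Figure D1:**
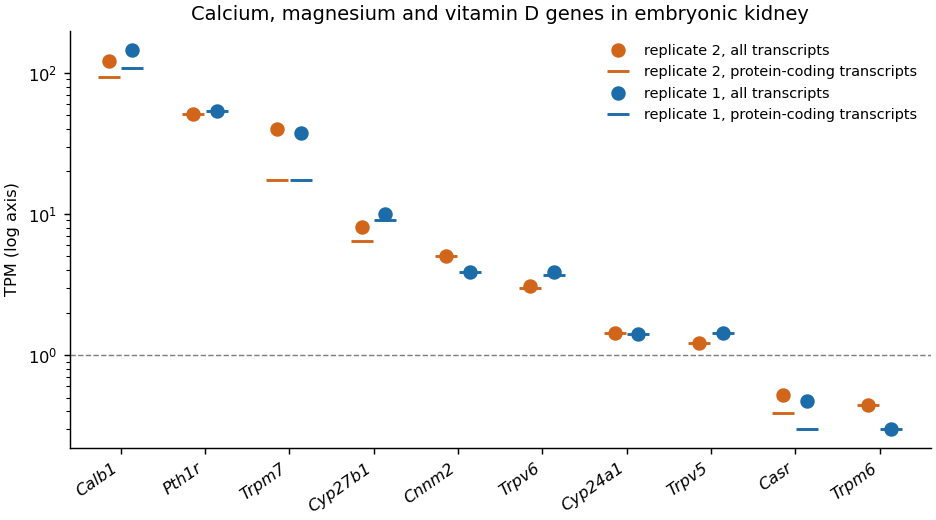
TPM on a log axis for each gene in the replicate 2 library (orange) and the replicate 1 library (blue), with points for all transcripts of a gene, short bars for its protein-coding transcripts alone, and a dashed line at the detection threshold of 1 TPM. Calb1 lies above 100 TPM in both libraries, Casr and Trpm6 lie below 1 TPM in both, and the bars of Trpm7 lie well below its points.

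Both libraries expressed the defining genes of the kidney. All listed markers of nephron progenitors (5), ureteric tip (5), collecting duct (8), loop of Henle (4), proximal tubule (6) and podocytes (5) were detected, and of 5 markers of the distal convoluted and connecting tubule only Pvalb was not, at 0.09 TPM in replicate 2 and 0 in replicate 1. Markers of other cell types and tissues differed between the pools. The values do not tell whether such cells lay inside or beside the kidney. The summed level of the 7 cartilage and bone markers was 18.4 TPM in replicate 2 and 167 TPM in replicate 1, and Ibsp, a bone matrix gene, stood at 0.12 TPM and 131 TPM in the same order. The 5 skeletal muscle markers summed to 160.1 TPM in replicate 2 and 295 TPM in replicate 1. By summed level replicate 2 was the higher one for the 5 smooth muscle markers (631 against 263 TPM) and the 6 adrenal cortex markers (149 against 44.9 TPM). The same held for the sums of the 5 adrenal medulla markers (96.1 against 16.9 TPM), the 5 liver markers (313 against 166 TPM) and the 5 neuron markers (62.8 against 33.3 TPM). Among the neuron markers, Elavl4 went the other way, at 12.03 TPM in replicate 2 and 12.81 TPM in replicate 1. None of these lists summed to 0 in either library, and the part of such cells in the values below was not tested, except where a value is given.

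Calb1 was the most abundant of the 10 genes and the only 1 whose difference between the pools passed the limit set by all genes. Calb1 (ENSMUSG00000028222.2, chr4:15881264-15908064, plus strand) encodes a calbindin, which buffers calcium in distal tubule cells and is also a long-used marker of the ureteric tree in the embryo. Its level was 121 TPM in replicate 2 and 145 TPM in replicate 1 (10612 and 11471 expected counts), or 133 ± 17 TPM (mean ± SD, n = 2), and it ranked 1132 of 21474 protein-coding genes. The log2 TPM ratio of replicate 2 over replicate 1 was -0.26. The limit for a gene of this level, was 0.253, so Calb1 stood just outside it. That limit is the size of log2 ratio, of either sign, which 95% of all genes at 100 TPM or more stay within. By this rule 1 of the 10 genes was called, against 5.0% of 21011 genes tested, a share that the limit itself sets. Past 2-fold there were 0 of the 10, against 9.21% of the same genes. From the counts alone the log2 ratio lay between -0.26 and -0.18 (exact Clopper-Pearson interval, 95%, counting error only). The call depended on the scaling, and each scaling has a limit of its own. It was lost for CPM, which divides counts by library size, under TMM factors (log2 ratio -0.24, limit 0.249) and for counts with DESeq2's size factors (-0.24, limit 0.251), and it was kept for TPM rescaled over nuclear genes (-0.2445, limit 0.2437).

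Genes known from the same tubule segments were set beside Calb1. S100g, the smaller calbindin, stood at 161 TPM in replicate 2 and 236 TPM in replicate 1, and its log2 ratio of -0.55 was also past the limit. Calb1 was lower than S100g in both libraries, by 0.56 ± 0.20 on the log2(TPM + 1) scale (SD, n = 2), more than the limit of 0.253. Of the 8 collecting duct markers only Aqp2, the water channel of principal cells, was past its limit, at 34.5 TPM in replicate 2 and 54.4 TPM in replicate 1, and the list summed to 533 and 577 TPM in the same order. The distal convoluted and connecting tubule markers summed to 43.6 TPM in replicate 2 and 44.4 TPM in replicate 1. Calb1, S100g and Aqp2 were thus all lower in replicate 2, while the other 7 collecting duct markers lay inside their limits, with log2 ratios between -0.15 for Gata3 and 0.08 for Wnt9b.

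**Figure D2:**
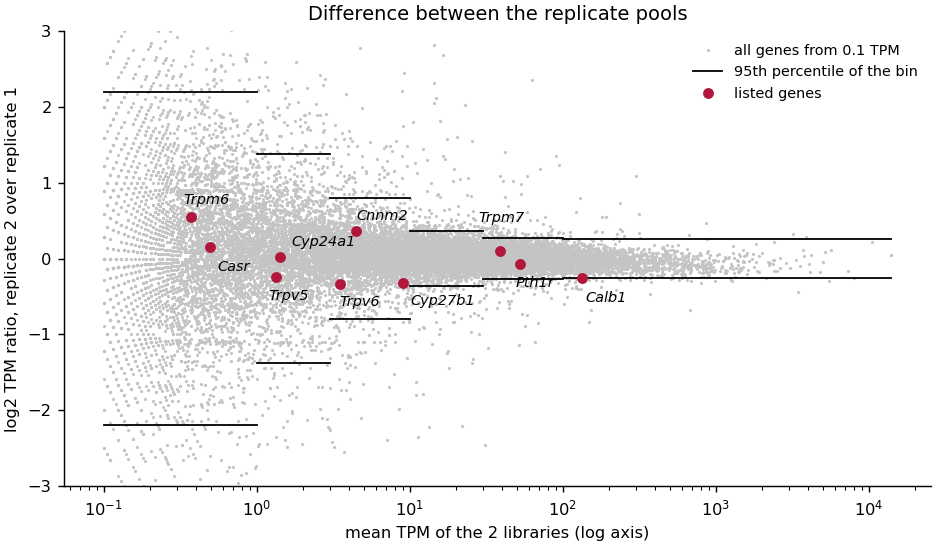
The log2 TPM ratio of replicate 2 over replicate 1 (y axis) against mean TPM (log x axis) for all genes from 0.1 TPM (grey) and the 10 listed genes (red), with black lines at the 95th percentile of each bin of mean TPM and ratios beyond 3 either way not drawn. Calb1 lies at the lower line of the highest bin, and the other 9 genes lie between the lines of their bins.

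The calcium channels of the distal tubule were transcribed at low levels. Trpv6 (ENSMUSG00000029868.9, chr6:41620624-41636405, minus strand), an epithelial calcium channel that also serves gut and placenta, was at 3.07 TPM in replicate 2 and 3.88 TPM in replicate 1 (228 and 267 counts). Trpv5 (ENSMUSG00000036899.6, chr6:41652173-41680769, minus strand), its neighbour on the chromosome and the main apical calcium channel of the adult distal tubule, was at 1.22 TPM in replicate 2 and 1.44 TPM in replicate 1 (101 and 111 counts). Trpv6 was the higher of the pair in each library, by 0.94 ± 0.09 on the log2(TPM + 1) scale (SD, n = 2). The limit at the level of Trpv5 was 1.38, so the pair was not set apart by this rule. The limit comes from TPM ratios with no pseudocount, and adding 1 shrinks differences at such low levels. With a pseudocount of 0.1 the difference was 1.32, and the pair was still not set apart. Both genes were lower in replicate 2, by log2 ratios of -0.34 for Trpv6 and -0.24 for Trpv5, each inside its limit.

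The coding sequences of the channel pair are alike, and reads split between the 2 genes would show as fractional counts. Aligned over 2148 bases, the coding sequences of Trpv6 and Trpv5 were 76.2% identical, and the longest identical run between the whole transcripts was 47 nt. The expected counts of both were whole numbers in both libraries at the gene level, so they show no read split between the genes. Nearly all Trpv6 signal was given to its coding transcript ENSMUST00000031902.6, with 96.8% of the gene's TPM in replicate 2 and 95.1% in replicate 1, and all Trpv5 signal to the coding ENSMUST00000031901.6.

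The magnesium channel genes stood far apart, Trpm7 near the top of the list and Trpm6 at its foot. Trpm7 (ENSMUSG00000027365.10, chr2:126791565-126876230, minus strand), a channel fused to a kinase that most cell types express, was at 40.3 TPM in replicate 2 and 37.6 TPM in replicate 1 (4242 and 3944 counts), or 38.9 ± 1.93 TPM (SD, n = 2). Trpm6 (ENSMUSG00000024727.8, chr19:18749983-18892511, plus strand), its relative of the distal convoluted tubule and gut, was at 0.44 TPM in replicate 2 and 0.3 TPM in replicate 1 (75 and 47 counts). Trpm7 exceeded Trpm6 by 4.87 ± 0.03 on the log2(TPM + 1) scale (SD, n = 2), past the limit of 2.20. Both Trpm7 values lay far above both Trpm6 values, and with the protein-coding transcripts of Trpm7 alone, at 17.4 TPM in replicate 2 and 17.5 TPM in replicate 1, the pair was still set apart. Trpm6 had the largest log2 ratio between the pools of the 10 genes, 0.55, with a counting interval from 0.02 to 1.12, and this was inside its limit of 2.20. A count of 0 would have allowed up to 0.0176 TPM for Trpm6 in replicate 2 and 0.0191 TPM in replicate 1 (3 counts), so the RNA was present above that floor in both.

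Cnnm2 (ENSMUSG00000064105.8, chr19:46761596-46880192, plus strand), a basolateral membrane protein of magnesium-transporting tubule cells, was at 5.02 TPM in replicate 2 and 3.9 TPM in replicate 1 (455 and 327 counts). Among its family, Cnnm4 was at 10.05 TPM in replicate 2 and 10.12 TPM in replicate 1, Cnnm3 at 3.27 and 3.01 TPM and Cnnm1 at 0.07 TPM in each. Cnnm2 was lower than Cnnm4 in both libraries, by 1.03 ± 0.22 on the log2(TPM + 1) scale, past the limit of 0.799. It was higher than Cnnm3 by 0.39 ± 0.15, inside the same limit. Against Cnnm1 the difference was 2.34 ± 0.21, and the replicate 1 value fell short of 2.20, the limit of the lowest bin (SD, n = 2 for each). Cnnm1 lies below that bin, which starts at 0.1 TPM, so no limit was had at its own level, and with a pseudocount of 0.1 the difference was 4.73 and the pair was set apart.

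Cyp27b1 and Cyp24a1, which make and remove active vitamin D, were both detected, and the making enzyme was the higher one. Cyp24a1 (ENSMUSG00000038567.5, chr2:170482708-170497145, minus strand) was at 1.44 TPM in replicate 2 and 1.42 TPM in replicate 1 (131 and 120 counts). Cyp27b1 (ENSMUSG00000006724.8, chr10:127048250-127053006, plus strand) was at 8.04 TPM in replicate 2 and 10.05 TPM in replicate 1 (486 and 563 counts). The difference of Cyp24a1 minus Cyp27b1 was -2.04 ± 0.21 on the log2(TPM + 1) scale (SD, n = 2), past the limit of 1.38. Both libraries had Cyp27b1 above Cyp24a1, and no value of one gene came near the other.

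Cyp24a1 overlaps Pfdn4, a chaperone subunit gene on the opposite strand, over 718 bp, of which 83 bp are exonic in both genes. Pfdn4 was at 63.1 TPM in replicate 2 and 84.6 TPM in replicate 1. The sources used here do not say whether the authors' counting used strand. The Cyp24a1 expected counts were whole numbers in both libraries, so they show no read split with another gene. The part of Pfdn4 reads in the low Cyp24a1 level was not tested. Vdr, the receptor of active vitamin D, was at 5.11 TPM in replicate 2 and 5.93 TPM in replicate 1. Cyp27b1 exceeded Vdr by 0.62 ± 0.08 on the log2(TPM + 1) scale (SD, n = 2), inside the limit of 0.799.

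Of the 2 receptors that read the calcium state of the body, Pth1r was abundant and Casr was below the detection threshold. Pth1r (ENSMUSG00000032492.10, chr9:110722085-110747145, minus strand), the receptor of parathyroid hormone and its related peptide, was at 50.9 TPM in replicate 2 and 53.3 TPM in replicate 1 (2861 and 2783 counts), or 52.1 ± 1.71 TPM (SD, n = 2). Casr (ENSMUSG00000051980.9, chr16:36493696-36562141, minus strand), the calcium-sensing receptor, which acts in the thick ascending limb, was at 0.52 TPM in replicate 2 and 0.47 TPM in replicate 1 (44 and 31 counts). The distance between them was 5.15 ± 0.08 on the log2(TPM + 1) scale (SD, n = 2), past the limit of 2.20. Slc12a1, the cotransporter of the same limb, was at 30.8 TPM in replicate 2 and 33.9 TPM in replicate 1, and Umod was at 2.73 and 3.79 TPM.

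Pth1r is also a gene of bone-forming cells, whose markers differed between the pools. The Pth1r log2 ratio was -0.07, inside its limit of 0.269, while the log2 ratio of the summed cartilage and bone markers was -3.18. That sum rests largely on Ibsp, and the other 6 markers summed to 18.3 TPM in replicate 2 and 35.6 TPM in replicate 1, a log2 ratio of -0.96. The part of such cells in the Pth1r level was not tested. It overlaps the opposite-strand muscle gene Myl3 over 5285 bp, with 95 bp exonic in both, and Myl3 stood at 1.48 TPM in replicate 2 and 3.1 TPM in replicate 1. Pth2r, the other receptor of this class, had 2 counts in replicate 2 and 0 in replicate 1.

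Ordered by mean TPM, the genes ran Calb1, Pth1r, Trpm7, Cyp27b1, Cnnm2, Trpv6, Cyp24a1, Trpv5, Casr and Trpm6. Neighbours were called set apart where their log2 TPM difference had 1 sign in both libraries and exceeded, in each, the limit at the level of the lower gene. Calb1 stood above Pth1r by 1.34 ± 0.14, Pth1r above Trpm7 by 0.42 ± 0.12 and Trpm7 above Cyp27b1 by 2.11 ± 0.30 (log2 TPM, SD, n = 2). The other 6 steps did not exceed the replicate error in both libraries, and Cyp24a1 and Trpv5 changed places between the libraries. With protein-coding transcripts only, a setting chosen after the data were seen, the same 3 steps held, and Trpm6 came above Casr. The pair differences were computed for 10 pairs, of which 6 were set apart.

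The transcripts behind these levels differed in class from gene to gene. Over the 13385 detected protein-coding genes with transcript values, the median share of a gene's TPM held by protein-coding transcripts was 98.2%. Trpv5, Trpm6, Cyp24a1, Pth1r and Cnnm2 had 100% of theirs in protein-coding transcripts in both libraries. The deposited values hold only protein-coding transcripts for these genes, so that share was fixed by the annotation and is not a measured contrast. Trpm7 was lowest, with 43.2% in replicate 2 and 46.6% in replicate 1, and Calb1 had 77.6% in replicate 2 and 74.8% in replicate 1. Of the detected protein-coding genes, 8.77% had at least 25% of their TPM in transcripts annotated as retained introns.

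In Trpm7 the non-coding share came mostly from 1 transcript that begins near the start of the gene and ends inside an intron. This retained-intron transcript of 2201 nt (ENSMUST00000134408.1) held 34.0% of the gene's TPM in replicate 2 and 36.1% in replicate 1, close to the 35.7% and 43.6% of the main coding transcript (ENSMUST00000103224.5, 7107 nt). Of its bases, 1845 are also exonic in the main coding transcript and 356 are its own. A short transcript weighs more per read in TPM, and by reads it held 17.9% in replicate 2 and 17.7% in replicate 1, against 62.6% and 71.3% for the main coding transcript. Another retained-intron transcript, of 1444 nt (ENSMUST00000142334.1), held 8.92% of TPM in replicate 2 and 8.47% in replicate 1. The main coding transcript differs from the second coding transcript of the gene (ENSMUST00000028843.7) inside the coding sequence by 3 bases at chr2:126805085-126805087 on the minus strand, which are in capitals here between 12 bases on each side, since only reads across them tell the coding parts of the transcripts apart.
Trpm7 main coding transcript: actcggtgcaagCAGaaagctgtagta
The second coding transcript, which lacks them, held 6.85% of TPM in replicate 2 and 2.97% in replicate 1, and the quantifier's intervals overlapped (1.36 to 4.22 TPM in replicate 2 and 0.464 to 2.34 TPM in replicate 1).

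Calb1 had the same arrangement on a smaller scale. A retained-intron transcript of 701 nt from the first part of the gene (ENSMUST00000136266.1) held 21.1% of TPM in replicate 2 and 24.3% in replicate 1, but 3.82% and 4.52% of the reads. It shares 505 bases with the exons of the coding transcript and has 196 of its own. The coding transcript (ENSMUST00000029876.1, 4222 nt) was at 93.6 TPM in replicate 2 and 108 TPM in replicate 1. Its quantifier intervals, 89.7 to 93.5 TPM and 103.6 to 107.8 TPM, did not overlap. Each TPM value, 93.64 and 108.27, lay just above the top of its own interval, at 93.47 and 107.85. The intervals thus do not bracket the values. The coding transcript alone had a log2 ratio of -0.21, inside the limit of 0.247 for protein-coding TPM, a setting chosen after the data were seen, so Calb1 was not called on it. The retained-intron transcript was at 25.5 TPM in replicate 2 and 35.2 TPM in replicate 1.

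**Figure D3:**
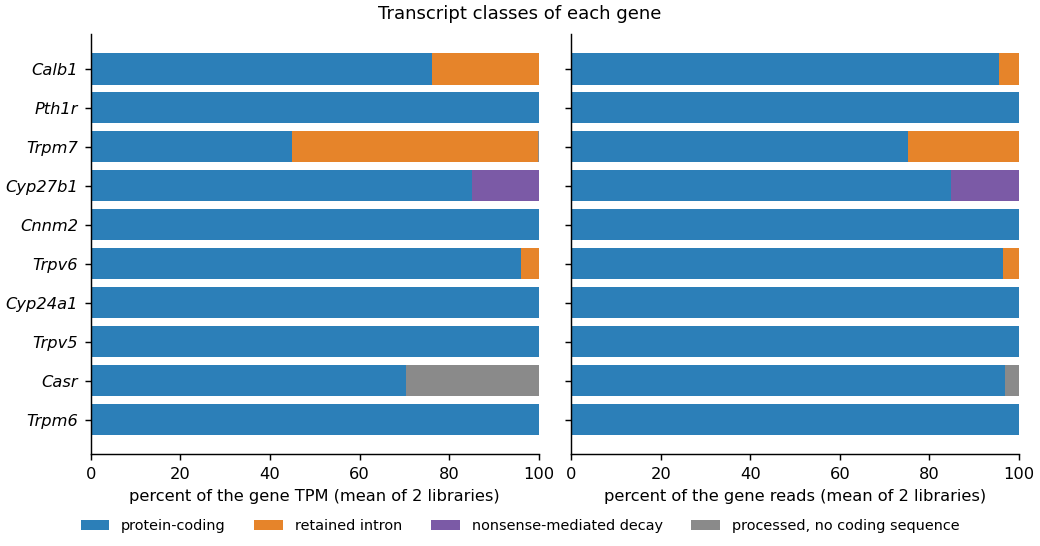
Share of each gene held by each transcript class, as mean percent of the gene's TPM (left) and of its expected counts (right) over the 2 libraries. The retained-intron share of Trpm7 and Calb1 and the non-coding share of Casr are much smaller by reads than by TPM.

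Cyp27b1 was split between its coding transcript and 1 annotated as a target of nonsense-mediated decay, a pathway that removes RNAs with early stop codons. The decay target (ENSMUST00000172069.1) held 19.7% of TPM in replicate 2 and 9.93% in replicate 1, with wide quantifier intervals of 0.528 to 3.19 TPM and 0.233 to 2.89 TPM. It differs from the coding transcript (ENSMUST00000165764.3) in the coding part by 26 bases at chr10:127049039-127049064 on the plus strand, a number that is not a multiple of 3, and these are shown because they are the coding difference between the 2.
Cyp27b1 decay target: gtattcaaatgcgccgattctctcag
The coding transcript alone was at 6.45 TPM in replicate 2 and 9.05 TPM in replicate 1.

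The 2 coding transcripts of Pth1r differ in where they start, and their balance was the same in both pools. The longer-spanning transcript (ENSMUST00000166716.3), which begins at the second RefSeq start shown above, held 67.9% of TPM in replicate 2 and 68.2% in replicate 1. The other (ENSMUST00000006005.7) held 32.2% in replicate 2 and 31.8% in replicate 1. Its annotated start in GENCODE M21 lies 109 bases upstream of the third RefSeq start, within the third window, although its length there (2307 nt) differs from that in the deposited table (2252 nt). The transcripts share 1933 exonic bases, with 286 in the first transcript alone and 374 in the other alone. The deposited values hold only these 2 transcripts of the gene. Transcripts that begin at the first start therefore had no value, and the balance given is between the 2 listed forms alone.

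Cnnm2 also had 2 coding transcripts, and their balance was less certain. The longer coding form (ENSMUST00000099373.6) held 65.9% of TPM in replicate 2 and 49.2% in replicate 1, and the shorter (ENSMUST00000077666.4) held 34.1% and 50.8%. The quantifier's intervals for the longer form overlapped, at 2.08 to 4.29 TPM in replicate 2 and 0.911 to 3.13 TPM in replicate 1. The 2 differ in coding sequence by an exon of 66 bases at chr19:46871656-46871721 on the plus strand, which is printed because it is the coding difference between them. In the deposited table their lengths, 3558 and 3492 nt, differ by the same 66 bases. GENCODE M21 gives other lengths, 4955 and 3051 nt, and other ends.
Cnnm2 longer form: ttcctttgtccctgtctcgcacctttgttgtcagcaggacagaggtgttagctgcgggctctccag
The Casr transcripts could not be resolved at 44 and 31 counts. A coding transcript that lacks an exon of 231 bases (ENSMUST00000114847.4) held 37.5% of TPM in replicate 2 and 0% in replicate 1, and a non-coding transcript of 400 nt (ENSMUST00000174750.1) held 24.3% and 34.8% from about 1 read in each.

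The start windows of the members differed in base composition in a way that did not follow their levels gene by gene. RefSeq windows were matched for 8 of the 10 genes, and Calb1 and Cyp24a1 are named only. The median window of 32841 held 7 CG pairs, with quartiles of 3 and 20. Trpm7 (35), the second (23) and the third (27) Pth1r starts and Cnnm2 (21) lay above the upper quartile, while Cyp27b1 (2), Trpv5 (1) and Trpv6 (1) lay below the lower one. Casr (4), the first Pth1r start (5) and Trpm6 (9) lay between. Cyp27b1, with 2 CG pairs, stood above Cnnm2, with 21, by mean TPM, although those neighbours were not set apart.

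**Figure D4:**
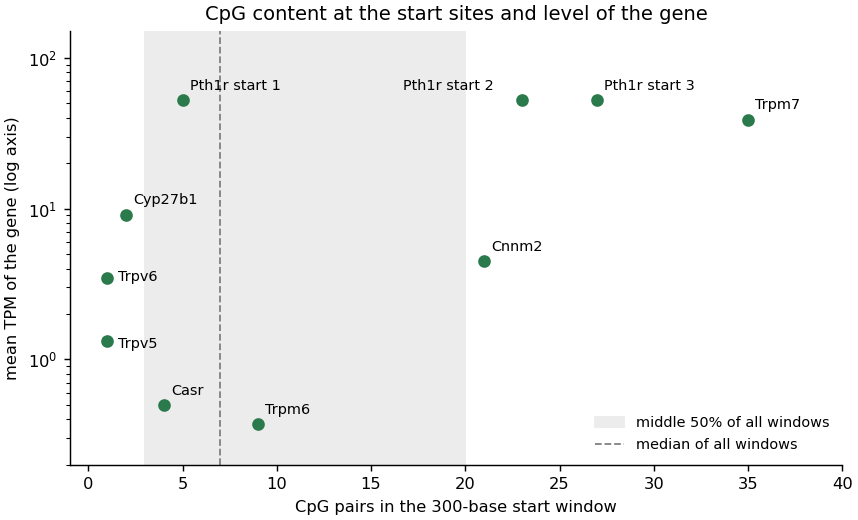
CG pairs in each 300-base start window (x axis) against the mean TPM of its gene (log y axis), with the middle 50% of all windows shaded and their median dashed. Trpm7 and 2 of the 3 Pth1r starts combine many CG pairs with a high level, and Cyp27b1, Trpv6 and Trpv5 have 1 or 2 CG pairs at levels between 1.33 and 9.05 TPM.

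In all, 3 short motifs were searched on both strands of the windows. The exact letters TATAAA, a form of the TATA box, occurred in 13.6% of all windows. Among the members they occurred only in Trpv5, beginning 43 bases before the RefSeq start. The GENCODE start of the Trpv5 transcript that held all of the gene's signal lies 46 bases upstream of the RefSeq start. The TATAAA letters thus fall inside that transcript. Other forms of the TATA box were not searched, so a window without TATAAA may still hold another form. CACGTG, an E-box, occurred in 7.15% of all windows and among the members only in Trpm7, which held 2, beginning 25 bases before the start and 16 bases after it. AGGTCA, a core element of nuclear receptors, the class that includes the vitamin D receptor, occurred in 16.3% of all windows and among the members only in Trpv6, with 2 on opposite strands. A match describes these letters and is not a measured binding site.

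Other genes of the pathways were read from 5 lists with 52 genes, of which 41 were detected, against 62.3% of all protein-coding genes, with a median of 10.1 TPM. By the limit between the pools 2 of the 52 were called, S100g and Ptp4a2, both lower in replicate 2, which is no more than the 5.0% called among all genes. These calls are on TPM and were not repeated with the other scalings. All 9 genes of vitamin D reception, activation and carriage were detected. Dab2, an endocytic adaptor, led them at 62.9 TPM in replicate 2 and 55.8 TPM in replicate 1, followed by the retinoid receptor Rxrb at 42.2 and 40.3 TPM. Lrp2, the megalin receptor that takes up filtered vitamin D with its carrier protein, was at 12.02 TPM in replicate 2 and 11.76 TPM in replicate 1.

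Of 12 hormones and signal partners 8 were detected. Gnas, the stimulatory G protein through which Pth1r signals, was at 1327 TPM in replicate 2 and 1263 TPM in replicate 1, Slc9a3r1, a scaffold that binds Pth1r, at 103 and 101 TPM, and Fgfr1, which with Klotho receives Fgf23, at 74.0 and 69.7 TPM. The hormone genes Pth and Fgf23, which are made chiefly in the parathyroid and in bone, had 0 counts in both libraries. Pthlh, the related peptide that acts on the same receptor, was at 1.06 TPM in replicate 2 and 0.98 TPM in replicate 1, at the detection threshold.

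In calcium buffering, extrusion and channel trafficking 7 of 9 genes were detected. Anxa2, Rab11a and S100a10, which help to bring TRPV channels to the membrane, led at 497, 432 and 418 TPM in replicate 2 and 465, 453 and 437 TPM in replicate 1. Below 1 TPM in both libraries were the pump Atp2b2 (0.51 and 0.22 TPM in replicates 2 and 1) and the calretinin gene Calb2 (0.17 and 0.06 TPM). The paracellular claudins were detected in 4 of 5 cases. Cldn2 was at 25.3 TPM in replicate 2 and 25.9 TPM in replicate 1, Cldn10 at 18.4 and 20.7 TPM, and Cldn19, a partner of Cldn16 in the thick ascending limb, at 10.7 and 10.9 TPM, while Cldn14 was at 0.17 and 0 TPM.

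Of 17 genes of magnesium transport and its regulators 13 were detected. The highest were Fxyd2, a subunit of the sodium pump, at 337 TPM in replicate 2 and 367 TPM in replicate 1, and the phosphatases Ptp4a2, at 249 and 303 TPM, and Ptp4a1, at 158 and 176 TPM, which bind CNNM proteins. The log2 TPM ratio of Ptp4a2 was -0.28, past the limit of 0.253. Its expected counts, not scaled for library size, were 12648 in replicate 2, the library with the higher total, and 12782 in replicate 1. The call was not repeated on counts. Below 1 TPM in both libraries were Egf, a hormone that stimulates Trpm6 (0.98 and 0.78 TPM in replicates 2 and 1), the transporter Slc41a2 (0.47 TPM in each), the potassium channel Kcna1 (0.22 and 0.21 TPM) and Cnnm1. The genes below the threshold thus included both Trpm6 and Egf, though each was above its counting floor.

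**Figure D5:**
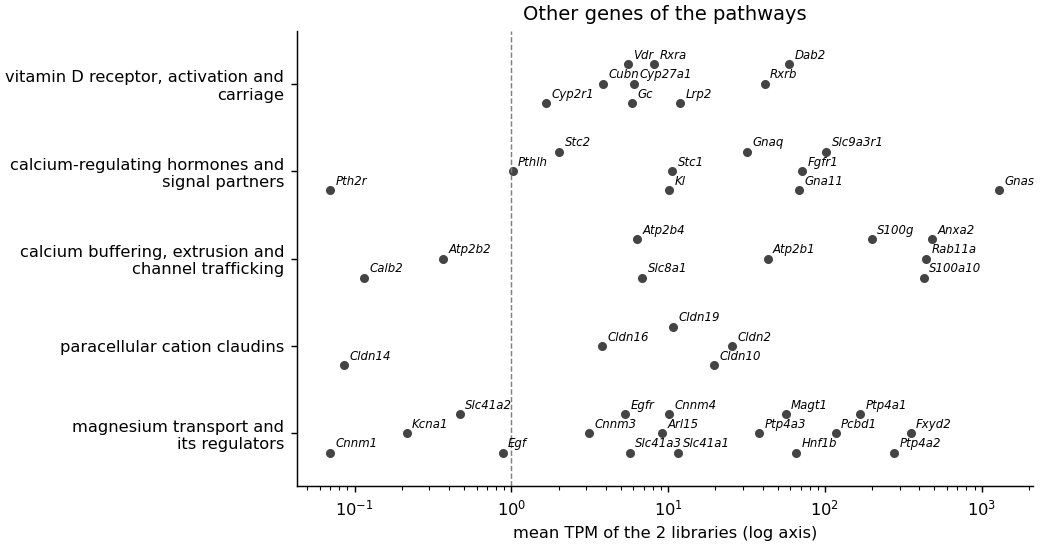
Mean TPM of the 2 libraries (log x axis) for the other pathway genes, 1 point a gene, grouped by list, with a dashed line at 1 TPM. Pth and Fgf23, at 0 in both libraries, are not drawn, and Gnas is the highest point.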

How the data were processed

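Gene and transcript tables of 2 libraries of embryonic mouse kidney were used. Reads were aligned to mm10 and quantified with GENCODE M4, per the text files deposited beside the tables. The sources used here name neither the aligner nor the quantifier, and do not say whether strand was used. The deposited expected counts are reads per feature as estimated by the authors' quantifier, which can split 1 read among features and so gives fractions. The deposited TPM values are adjusted for length and scaled to a fixed sum over all features. The deposited FPKM values served as an alternative. The percent of a gene held by each transcript, and the TPM intervals, are the authors' own columns, per the file headers.

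GENCODE M21, also on this build, gave names and coordinates for 42462 of 43346 genes, by identifier with the version removed. Windows came from RefSeq on GRCm38.p6. No columns of other samples were present. Coding sequences were aligned with Biopython 1.88. TMM factors (edgeR 4.0.16) and size factors (DESeq2 1.42.0) were computed from counts rounded to whole numbers.

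With 2 libraries in 1 group no test was made and no p computed. Labels call the libraries biological replicates. Over 19818 genes with at least 10 counts in all, their counts differed by 11.4 times the sampling noise (chi-square per degree of freedom), and log2(TPM + 1) had Pearson's r of 0.985 across 16157 genes, which are not independent replicates. The limit was the 95th percentile of the log2 TPM ratio, sign ignored, among genes of like mean TPM (bin edges 0.1, 1, 3, 10, 30 and 100). Pair differences used log2(TPM + 1), which shrinks differences at low levels, so the rule is stricter for pairs with a low gene. The script was tested on simulated data. Intervals and floors (3 counts) cover counting error only.

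The members and lists were chosen with earlier results of these data known. Named are the 10 members, the 3 highest genes of each pathway list, those below 1 TPM in both libraries and the genes of each pair. Pthlh, Pfdn4, Myl3 and the markers named with values were chosen after their values were seen. Alternatives were other detection thresholds, FPKM, rescaled TPM, a pseudocount of 0.1 in place of 1, TMM and DESeq2 scaling, a 2-fold limit, no filter, shares by counts, protein-coding transcripts only, and each library alone.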

Additional observations from a re-analysis of the deposited data

How the results depend on the processing

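Of 23 alternative values for counts and medians over the genes, 18 stayed within 1.5 times the reported count or within 1 SD of the reported median. Some of the 18 could not move and are no check. The count with no filter on low values repeats the reported one. The median share of each library alone lies within 1 SD because the SD comes from those same 2 values. At a threshold of 5 TPM, 4 of the 10 genes were detected in place of 8. None (0) of the 10 differed between the pools, in place of 1, with CPM and TMM factors, DESeq2's size factors, a 2-fold limit or protein-coding transcripts only (added after the data were seen), where Calb1 had log2 ratios of -0.24, -0.24, -0.26 and -0.21. With TPM rescaled over nuclear genes, at -0.24, Calb1 was still called. Dropping the filter on low values left the members in the same bins with the same limits, so it could not change the call. Each library alone gave 8 detected genes and a median protein-coding share between 97.6% and 98.4%, and FPKM gave 6 detected genes, without Trpv5 (0.895) and Cyp24a1 (0.96). Of the 10 pairs, Cnnm2 against Cnnm1 was set apart with a pseudocount of 0.1 and in replicate 2 alone. By counts in place of TPM the protein-coding share was 95.6% for Calb1, 96.9% for Casr and 75.3% for Trpm7. No paired analysis was possible because there is only 1 group. Depth limits Casr, Trpm6, Trpv5 and Cyp24a1 most, at between 31 and 131 counts a library.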
